A study of Mus musculus with 12 samples.

Results

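Thyroid hormone action in the liver runs through the proteins that bring the hormone, convert it and read it, and 5 of their genes are described here: Dio1 (the type 1 deiodinase), Thra and Thrb (the thyroid hormone receptors), and Serpina7 and Ttr (the blood carriers thyroxine-binding globulin and transthyretin). They were found by the gene symbol in the platform annotation. Each of the 5 genes had 1 transcript cluster, the set of probes that an array of this type reports as 1 value, out of 21789 clusters with exactly 1 symbol and 35557 in the whole table. Mouse liver RNA had been hybridised to 12 Affymetrix murine Gene Level 1.0 ST arrays, 3 in each of 4 groups: hypothyroid mutants, hypothyroid controls, euthyroid mutants and euthyroid controls. The mutants are named L-NCoR∆ID, with the nuclear receptor corepressor NCoR altered in the liver. The series set out to ask what NCoR does at genes that thyroid hormone raises and at genes that it lowers. The labels give neither the promoter behind the deletion, nor the controls' alleles, the strain, age or sex, nor how the mice were made hypothyroid, and nothing says whether the arrays of a group came from separate animals, so p-values measure the spread between these samples.

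The thyroid releases mainly thyroxine, which travels in blood bound to thyroxine-binding globulin, transthyretin and albumin, all made by the liver. Deiodinases remove iodine from it: the type 1 enzyme, a selenoprotein of liver and kidney, makes the active hormone triiodothyronine and clears inactive forms, and Dio1 is itself a textbook gene that the active hormone induces through its receptors. The receptors sit on DNA with or without hormone, and without it they hold corepressors such as NCoR through that protein's interaction domains. Thrb encodes the receptor that predominates in liver, and Thra encodes a second receptor and a splice form that does not bind the hormone.

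The stretches just before the transcription start of Dio1 and Serpina7 are shown because these were the 2 genes that changed most with thyroid state. They are the 250 bases before the start from RefSeq, build GRCm38.p6, 5′ to 3′ on the gene's strand. The sequence of Dio1 is chr4:107307169-107307418, minus strand, and that of Serpina7 is chrX:139085237-139085486, minus strand, before the more upstream of its 2 listed starts. Capitals mark GTTAAT, the core of sites for the liver factor HNF1, and TATAAA, the TATA box.
Dio1: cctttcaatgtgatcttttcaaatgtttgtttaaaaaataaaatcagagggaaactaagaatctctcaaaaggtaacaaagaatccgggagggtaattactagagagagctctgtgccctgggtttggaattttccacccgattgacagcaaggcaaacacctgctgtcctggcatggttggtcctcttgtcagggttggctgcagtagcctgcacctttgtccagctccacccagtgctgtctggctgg
Serpina7: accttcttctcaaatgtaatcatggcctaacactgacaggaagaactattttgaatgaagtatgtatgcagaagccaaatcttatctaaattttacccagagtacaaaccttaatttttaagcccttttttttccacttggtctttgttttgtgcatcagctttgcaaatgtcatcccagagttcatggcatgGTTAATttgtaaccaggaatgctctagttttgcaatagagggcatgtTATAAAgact

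Both strands of these windows were searched for AGGTCA, the core that thyroid hormone receptors and related receptors bind, for 2 such cores as a direct repeat (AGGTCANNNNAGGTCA, which contains the single core), for GGTCA, the last 5 letters of the core, for GTTAAT and for TATAAA. The Dio1 window held none of these. The Serpina7 window held GTTAAT with its first base at -57 and TATAAA with its first base at -10 from the upstream start, or -27 from the other listed start. Of 5 genes, 3 had a window in the table, the other being Thrb, which held AGGTCA with its first base at -184 and GTTAAT on the other strand at -44 from the first of its 2 listed starts, and TATAAA at -167 from the other. Over the 32851 windows of all genes, AGGTCA stood in 14.02%, its last 5 letters in 35.2%, the direct repeat in 0.015%, GTTAAT in 6.43% and TATAAA in 12.4%. A match describes these letters, and no match says only that they are not in this window.

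Dio1 was the gene of the group with the largest change. In hypothyroid mutants the log2 signals were 3.20, 3.72 and 2.83, and in hypothyroid controls they were 3.21, 3.25 and 3.24. In euthyroid mutants they were 9.51, 9.62 and 9.74, and in euthyroid controls 8.14, 8.91 and 8.67. All 6 hypothyroid arrays lay far below all 6 euthyroid arrays, where 3.75% of all clusters did not overlap in either direction. Within mutants the signal fell 82.8-fold with hypothyroidism (log2 difference -6.37 ± 0.21 SE, 95% interval -6.82 to -5.92, limma adjusted p = 2.04e-10), and within controls it fell 40.4-fold (-5.34 ± 0.21, -5.78 to -4.89, limma adjusted p = 2.71e-09). In each genotype this was the second largest fall of the 21789 clusters, after that of Gm21286. In these 2 comparisons 1.11% of clusters were called at an adjusted p under 0.05 in either genotype, 0.454% lower in mutants and 0.473% lower in controls.

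The low end of Dio1 sets a limit on these folds. In hypothyroid mutants 20.9% to 35.8% of clusters had a lower signal than Dio1 on the same array, and in hypothyroid controls 25.8% to 26.5% did, against 96.8% to 97.3% in euthyroid mutants and 91.0% to 95.5% in euthyroid controls. The table holds no detection calls, so whether the hypothyroid signals stood above background was not tested, and each fold is a ratio of deposited signals. In whole liver, fewer cells of a type and less RNA per cell cannot be told apart.

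Between genotypes, euthyroid mutants lay above euthyroid controls on Dio1 and did not overlap them, as 10.4% of all clusters did not in this comparison. The group means were 9.62 (SD 0.113, n = 3) in euthyroid mutants and 8.57 (SD 0.393, n = 3) in euthyroid controls. The difference was 1.05 ± 0.21 SE (95% interval 0.60 to 1.502, a ratio of 2.08), with a limma adjusted p = 0.0773 that missed the threshold, where 0.129% of clusters were called. With the SD of each array as a covariate it was 1.22 (limma adjusted p = 0.04) and without control euthyroid replicate 14 and mutant hypothyroid replicate 7 it was 1.22 (limma adjusted p = 0.0298), so this call rests on the setting. It was also called without mutant hypothyroid replicate 6 (limma adjusted p = 0.0396) or replicate 7 (0.0453), arrays that enter only through the shared estimate of spread. Over the 12 arrays left out in turn the difference ranged over 0.84 to 1.22. Averaged over thyroid states the mutant difference of Dio1 was 0.54 ± 0.149 SE, with a limma adjusted p = 0.103.

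In hypothyroid mice the Dio1 groups overlapped, at the low signals for which detection was not tested, so a genotype difference there may not have been measurable. The means were 3.25 (SD 0.449) in hypothyroid mutants and 3.23 (SD 0.020) in hypothyroid controls, a difference of 0.02 ± 0.21 SE with a 95% interval of -0.43 to 0.47. Without mutant hypothyroid replicate 6 the difference was -0.22. Here 0.262% of all clusters were called. The mutant effect was smaller in hypothyroid than in euthyroid mice by 1.04 ± 0.297 SE on the log2 scale (95% interval of the signed difference -1.67 to -0.40), with a limma adjusted p of 1. This value rests on the same low signals. In an exact permutation of genotype within thyroid state over 400 relabellings, two-sided and unadjusted, this difference had p = 0.055. That shuffling takes genotype to have no effect in either thyroid state, so it cannot decide whether the 2 effects differ. Of all clusters 0% passed the limma test of the difference after adjustment, with 600 at an unadjusted p under 0.05.

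**Figure D1:**
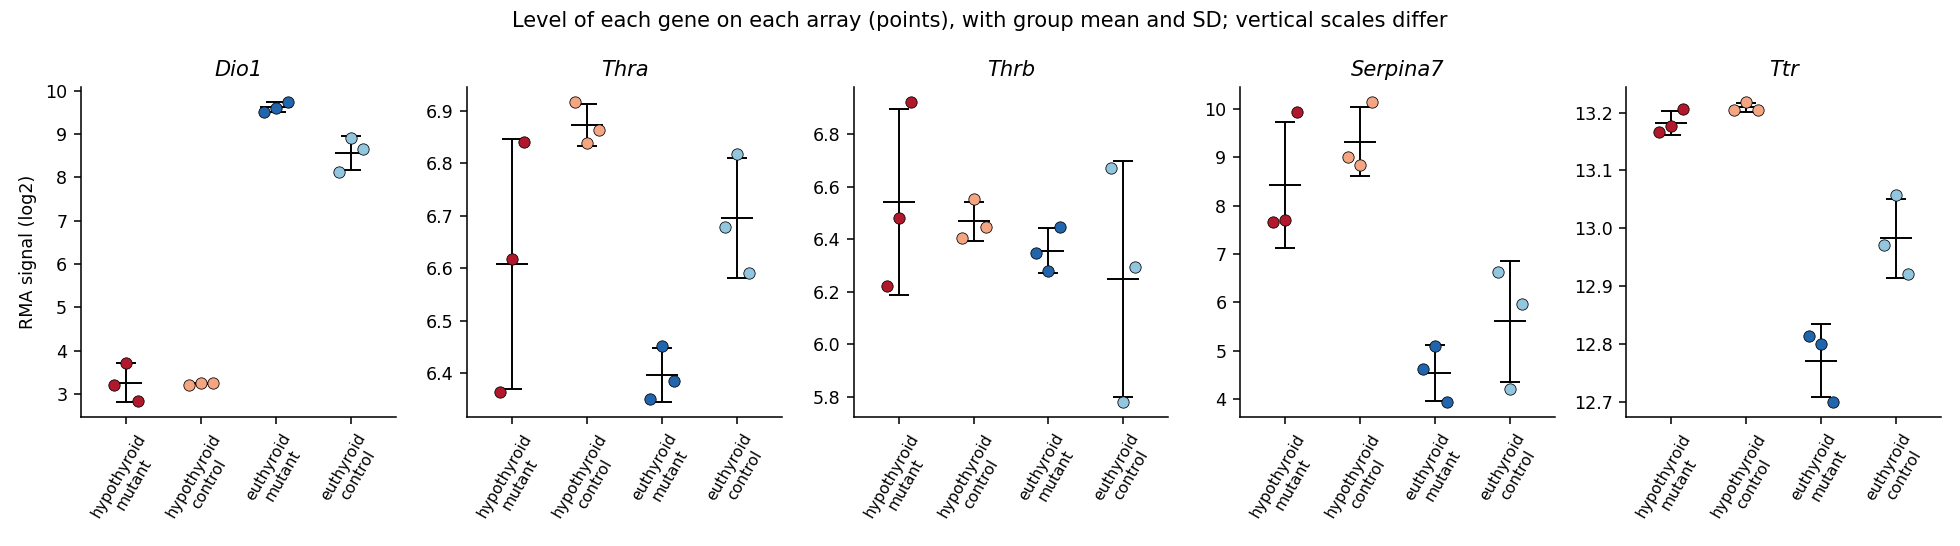
Deposited RMA signal (log2, vertical axis, a separate scale for each gene) of Dio1, Thra, Thrb, Serpina7 and Ttr on each of 12 arrays (points) in 4 groups, with the group mean (wide bar) and SD (whiskers). Dio1 lay at 2.83 to 3.72 on the 6 hypothyroid arrays and at 8.14 to 9.74 on the 6 euthyroid arrays, while the Thrb groups overlapped.

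The receptor genes moved little with either factor. Thra had log2 signals of 6.36, 6.62 and 6.84 in hypothyroid mutants, 6.92, 6.84 and 6.86 in hypothyroid controls, 6.35, 6.45 and 6.39 in euthyroid mutants, and 6.68, 6.82 and 6.59 in euthyroid controls. Euthyroid mutants lay below euthyroid controls on Thra with no overlap, as 10.4% of all clusters did not overlap in either direction, and in hypothyroid mice the groups touched, the highest mutant (6.841) standing just above the lowest control (6.838). The differences of mutant and control were -0.27 ± 0.133 SE in hypothyroid mice (limma adjusted p = 0.507) and -0.30 ± 0.133 in euthyroid mice (limma adjusted p = 0.59). Averaged over thyroid states, Thra in mutants differed by -0.28 ± 0.094 SE (95% interval -0.48 to -0.08) with a limma adjusted p = 0.16, where 1.14% of clusters were called. The exact permutation within thyroid state, two-sided and not adjusted for the 15 such tests made here, gave p = 0.01 for this average, and the smallest p it can give is 0.005. The same permutation of genotype gave 0.015 for Ttr (0.225 after median centring), 0.05 for Dio1, 0.105 for Serpina7 and 0.58 for Thrb.

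Hypothyroidism gave Thra a difference of 0.21 ± 0.133 SE in mutants (95% interval -0.07 to 0.50) and 0.18 ± 0.133 in controls (-0.11 to 0.46), neither called. For the average over genotypes (0.19) the exact permutation within genotype, unadjusted, gave p = 0.03, and 0.24 after quantile normalization. The order of the Thra means was hypothyroid control, euthyroid control, hypothyroid mutant and euthyroid mutant, over a span of 0.48, and only the first pair of neighbours in that order did not overlap, in a comparison where 16.7% of all clusters did not. In RefSeq the Thra gene overlaps its neighbour Nr1d1, which encodes the clock repressor REV-ERB alpha. Nr1d1 averaged 8.82 in hypothyroid mutants, 9.42 in hypothyroid controls, 7.90 in euthyroid mutants and 8.49 in euthyroid controls, the same signs as Thra for genotype (-0.60 ± 0.309 SE on average, limma adjusted p = 0.347) and for thyroid state (0.93 ± 0.309, limma adjusted p = 0.0861). Whether any probe of the Thra cluster reads the shared stretch was not tested.

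Thrb had log2 signals of 6.22, 6.48 and 6.92 in hypothyroid mutants, 6.41, 6.55 and 6.45 in hypothyroid controls, 6.35, 6.28 and 6.45 in euthyroid mutants, and 6.67, 5.78 and 6.29 in euthyroid controls. All 4 groups overlapped, and the span of the group means (0.29) was about the size of the SD within groups (0.291). The mutant difference of Thrb was 0.07 ± 0.204 SE in hypothyroid mice (95% interval -0.36 to 0.51) and 0.11 ± 0.204 in euthyroid mice (-0.33 to 0.54). The hypothyroid difference was 0.18 ± 0.204 in mutants (-0.25 to 0.62) and 0.22 ± 0.204 in controls (-0.21 to 0.65). All 4 of these signs turned with the SD of the array as a covariate, so no direction is given for Thrb. The upper limit farthest from 0, that of controls, was a ratio of 1.57.

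**Figure D2:**
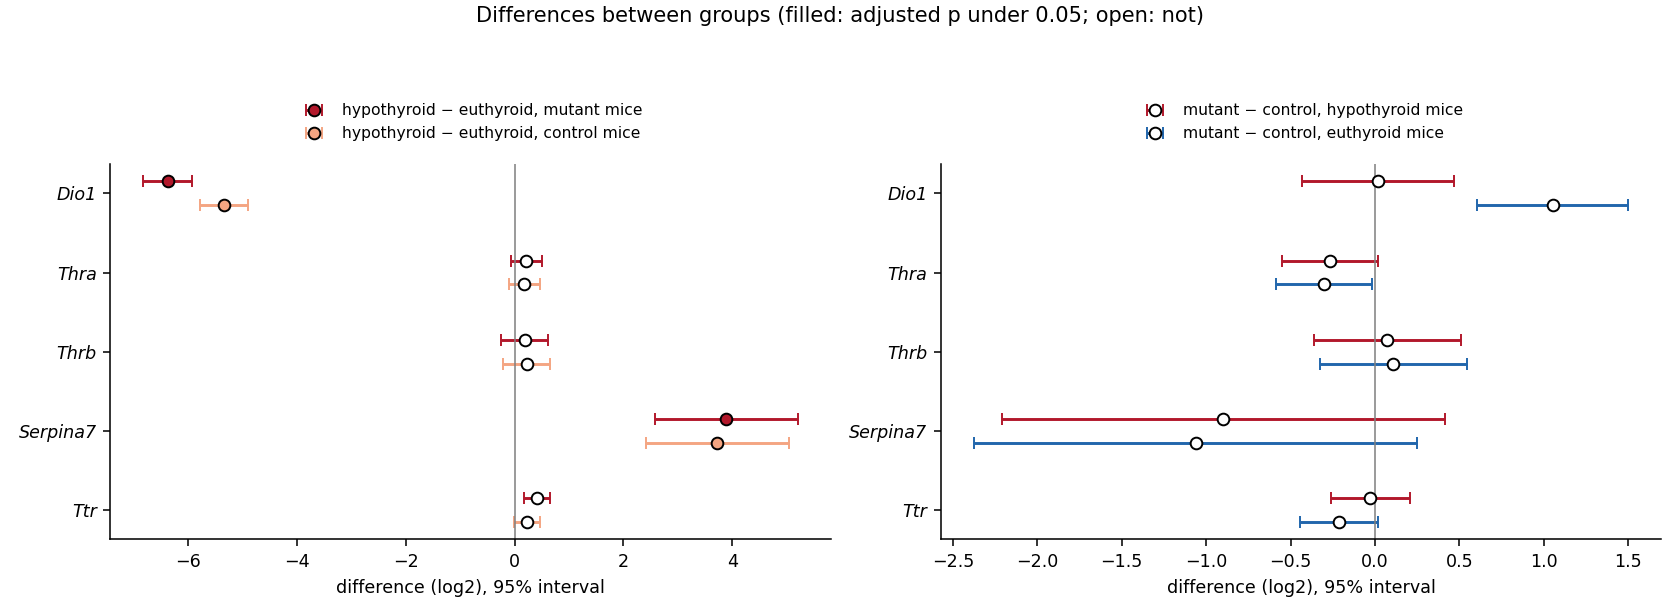
Differences between group means (log2, horizontal axis) with 95% intervals from the limma fit for 5 genes, hypothyroid minus euthyroid on the left (dark: mutants, light: controls) and mutant minus control on the right (red: hypothyroid, blue: euthyroid), with filled points at an adjusted p under 0.05. Dio1 (-6.37 and -5.34) and Serpina7 (3.89 and 3.72) were called for thyroid state in both genotypes, and none of the 5 was called between genotypes.

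Of the carriers, Serpina7 rose strongly with hypothyroidism. Its log2 signals were 7.66, 7.70 and 9.93 in hypothyroid mutants and 9.001, 8.84 and 10.1 in hypothyroid controls. They were 4.61, 5.09 and 3.93 in euthyroid mutants and 6.63, 4.21 and 5.97 in euthyroid controls. Every hypothyroid array stood above every euthyroid array, where 3.75% of all clusters did not overlap in either direction. Within each group the arrays spread widely. In mutants the signal was 14.8-fold higher in hypothyroid mice (3.89 ± 0.616 SE, 95% interval 2.57 to 5.20, limma adjusted p = 0.00595). In controls it was 13.2-fold higher (3.72 ± 0.616, 2.41 to 5.04, limma adjusted p = 0.00628). It was the third largest rise of all clusters in mutants, after Cyp4a12b and Cyp4a12a, and the largest in controls. Of all clusters, 0.652% in mutants and 0.638% in controls were called higher in these comparisons.

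The size of the Serpina7 difference changed under some treatments of the range of signal of the arrays and not under others. Quantile normalization, which makes the ranges equal, gave 3.80 in mutants (limma adjusted p = 0.00755) and 3.71 in controls (0.00714). Without the arrays of most extreme range, mutant hypothyroid replicate 7 and control euthyroid replicate 14, it was 3.14 in mutants (0.00207) and 3.02 in controls (0.0012). With the array SD as a covariate, the difference was 1.94 in mutants (limma adjusted p = 0.299) and 2.45 in controls (limma adjusted p = 0.0315). With trend and robust variances the limma adjusted p was 0.0761 in mutants and 0.0737 in controls, and with every cluster of the table tested it was 0.0431 and 0.0536. Without mutant hypothyroid replicate 7 the difference in mutants was 3.14, which is 1.68 times smaller as a fold, and without control euthyroid replicate 14 that in controls was 3.02, which is 1.62 times smaller. Both stayed called whichever single array was left out, with limma adjusted p-values of at most 0.0427. Averaged over genotypes the difference was 3.80 ± 0.436 SE (limma adjusted p = 0.000116), and the exact permutation within genotype gave the smallest p it can, 0.005.

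Between genotypes Serpina7 was lower in mutants on average, by an amount within the spread of the arrays. The means were 8.43 (SD 1.30, n = 3) in hypothyroid mutants, against 9.33 (SD 0.708) in hypothyroid controls, and 4.54 (SD 0.581) in euthyroid mutants, against 5.61 (SD 1.25) in euthyroid controls. The differences were -0.90 ± 0.616 SE in hypothyroid mice (95% interval -2.21 to 0.42) and -1.06 ± 0.616 in euthyroid mice (-2.38 to 0.25), and the groups overlapped in both. The average of -0.98 ± 0.436 SE had a limma adjusted p = 0.276. It was -2.18 (limma adjusted p = 0.032) with the SD of the array as a covariate and -1.70 (limma adjusted p = 0.0111) without control euthyroid replicate 14 and mutant hypothyroid replicate 7.

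Those 2 arrays had the extremes of signal range. The SD taken over every cluster of an array was 2.35 on mutant hypothyroid replicate 7, where Serpina7 (9.93) and Thrb (6.92) were highest in their group, and 2.22 on control euthyroid replicate 14, where Serpina7 (4.21) and Thrb (5.78) were lowest in theirs. Dio1 ran the other way on both, at 2.83 and 8.91. The other 10 arrays had such an SD of 2.26 to 2.34, and hypothyroid arrays stood higher (2.29 to 2.35) than euthyroid ones (2.22 to 2.31), with some overlap. Among these 10, mutant hypothyroid replicate 6 had nearly the same SD (2.34) as replicate 7. Its Serpina7 (7.70) nevertheless lay near the lowest of that group (7.66), so Serpina7 did not follow the SD throughout the hypothyroid mutants. Array range moved with thyroid state, and the Serpina7 difference was called in both genotypes after quantile normalization and without these 2 arrays, but in controls alone with the SD as a covariate.

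**Figure D3:**
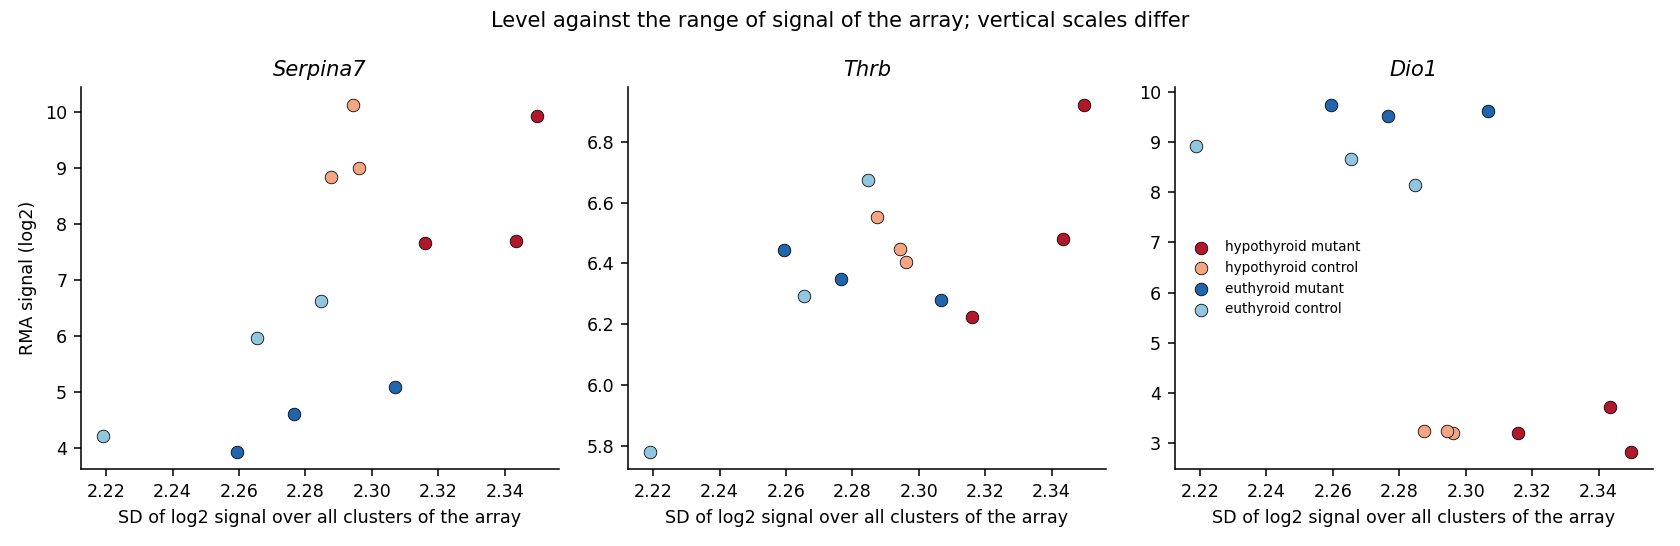
Signal of Serpina7, Thrb and Dio1 (log2, vertical axis, separate scales) against that array's SD over the whole table (log2, horizontal axis), 1 point for each of 12 arrays, coloured by group. Serpina7 and Thrb were lowest at the smallest SD (2.22) among euthyroid controls, and highest at the largest SD (2.35) among hypothyroid mutants. Another hypothyroid mutant array, replicate 6, had an SD of 2.34 and a Serpina7 of only 7.70.

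Ttr, by far the more abundant carrier transcript of rodent liver in textbook accounts, lay near the top of every array and changed little. Its log2 signals were 13.17, 13.18 and 13.21 in hypothyroid mutants and 13.20, 13.22 and 13.20 in hypothyroid controls. They were 12.81, 12.80 and 12.70 in euthyroid mutants and 12.97, 13.06 and 12.92 in euthyroid controls. The 6 hypothyroid arrays lay above the 6 euthyroid arrays with no overlap, as 3.75% of all clusters did not overlap in either direction, and they spanned under 0.06 in all. From 5 to 6 clusters had a higher signal on each hypothyroid array, and from 7 to 11 on each euthyroid array.

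Averaged over genotypes, Ttr rose by 0.32 ± 0.077 SE with hypothyroidism (95% interval 0.15 to 0.48, a ratio of 1.25, limma adjusted p = 0.0259), where 6.04% of clusters were called. The exact permutation within genotype gave 0.005. The adjusted p was above the threshold in each genotype taken alone, with differences of 0.41 ± 0.109 SE in mutants (limma adjusted p = 0.103) and 0.23 ± 0.109 in controls (limma adjusted p = 0.396). The call of the average was lost with the SD of the array as a covariate (limma adjusted p = 0.299) and without any 1 of 7 arrays (0.0538 to 0.0664), which were replicates 6 and 7 of the hypothyroid mutants, all 3 hypothyroid controls, replicate 4 of the euthyroid mutants and replicate 15 of the euthyroid controls, while the difference itself ranged only over 0.30 to 0.34.

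In euthyroid mice Ttr lay lower in mutants without overlap, as 10.4% of all clusters did not overlap in either direction (12.77, SD 0.063, against 12.98, SD 0.068, in euthyroid controls), a difference of -0.21 ± 0.109 SE with a limma adjusted p = 0.639. In hypothyroid mice the difference was -0.03 ± 0.109 (95% interval -0.26 to 0.21), and it was 0.04 after median centring. Whether signals this near the top of the scale were saturated was not tested.

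**Figure D4:**
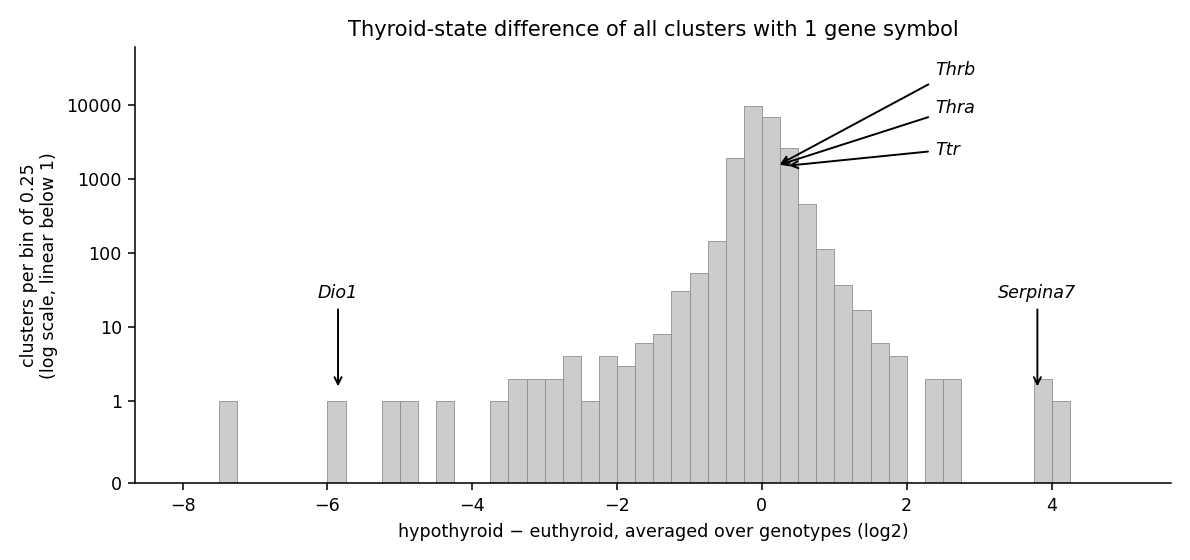
Number of clusters (vertical axis, log scale, linear below 1) by the difference of hypothyroid and euthyroid mice averaged over genotypes (log2, horizontal axis, bins of 0.25) for the 21789 clusters with 1 gene symbol, with arrows at the 5 genes. Dio1 (-5.85) and Serpina7 (3.80) stood in the sparse ends, while Thra (0.19), Thrb (0.20) and Ttr (0.32) lay in the body of the distribution.

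The other genes that carry, move, convert or read thyroid hormone were followed as lists, whose median difference with hypothyroidism is set beside that of all clusters (-0.020, averaged over genotypes), of which 4.18% were called higher and 1.87% lower. Of 8 measured genes of hormone metabolism, 2 rose and 0 fell in that average, with a median of 0.05. They were Sult1b1, a sulfotransferase that acts on iodothyronines (0.56 ± 0.153 SE, limma adjusted p = 0.045), and Iyd, which recovers iodide from iodotyrosines (0.37 ± 0.103, limma adjusted p = 0.0464). Neither was called after quantile normalization (0.0719 and 0.0916) or with every cluster of the table tested. Nor was either called with the SD of the array as a covariate, or without control euthyroid replicate 14 and mutant hypothyroid replicate 7. Over these alternatives the limma adjusted p was at most 0.68 for Sult1b1 and 0.885 for Iyd. Leaving out 1 array ended the call of Sult1b1 for 9 of 12 arrays (0.0564 to 0.12) and that of Iyd for 10 of 12 (0.057 to 0.121). The other deiodinases, Dio2 and Dio3, stayed near 3 on every group mean (2.73 to 2.92 for Dio2, 2.91 to 3.30 for Dio3).

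Dio1 is a selenoprotein, and of 12 genes that make or are selenoproteins 1 fell and 0 rose, with a median of 0.06. It was Gpx1, the cytosolic glutathione peroxidase, which averaged 11.56 in hypothyroid mutants, 11.22 in hypothyroid controls, 12.11 in euthyroid mutants and 12.18 in euthyroid controls. In controls it fell by 0.96 ± 0.136 SE (limma adjusted p = 0.00168), and in mutants the difference was -0.55 ± 0.136 (limma adjusted p = 0.0763). Sepsecs, which makes selenocysteine on its tRNA, averaged 0.48 ± 0.116 higher in mutants with a limma adjusted p = 0.0648 that missed the threshold.

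Of 11 measured membrane transporters of the hormone, 2 fell with hypothyroidism and 0 rose, with a median of -0.05. Slco1a1, an organic anion carrier of the hepatocyte, had log2 signals of 2.71, 5.71 and 5.28 in hypothyroid mutants, 5.16, 3.59 and 2.64 in hypothyroid controls, 3.96, 7.52 and 6.68 in euthyroid mutants, and 8.19, 7.63 and 6.52 in euthyroid controls. Its arrays spread widely and the mutant groups overlapped, with an average of -2.57 ± 0.62 SE (limma adjusted p = 0.0259). That call was lost with trend and robust variances (0.109), with every cluster of the table tested and with the SD of the array as a covariate. It was also lost without control euthyroid replicate 14 and mutant hypothyroid replicate 7 together. Over these alternatives the limma adjusted p was at most 0.116. It was lost too without any 1 of 6 arrays (0.0503 to 0.0715). They were replicate 5 of the hypothyroid mutants, 18 and 20 of the hypothyroid controls, 3 and 4 of the euthyroid mutants and 14 of the euthyroid controls. Slc7a5, an amino acid carrier that also takes thyroid hormone, fell by 0.47 ± 0.094 (limma adjusted p = 0.00854), a call lost with the SD of the array as a covariate (0.25).

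Of 5 other plasma carrier genes 0 were called in either direction, with a median of 0.02. Albumin, Alb, differed by 0.02 ± 0.078 SE between thyroid states, and Rbp4, the retinol carrier that travels with transthyretin, by 0.14 ± 0.085. Serpina6, the steroid-binding relative of Serpina7, averaged -0.29 ± 0.152 (limma adjusted p = 0.248).

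Of 18 measured receptor partners, 1 rose and 0 fell, with a median of 0.15. It was the coactivator gene Ppargc1a, higher by 1.26 ± 0.228 SE in hypothyroid controls (limma adjusted p = 0.0122) and by 0.97 ± 0.161 on average (limma adjusted p = 0.00261), and the difference in mutants was 0.67 ± 0.228 (limma adjusted p = 0.188). With the SD of the array as a covariate the limma adjusted p of Ppargc1a was 0.132 in controls and 0.341 on average, and the call in controls was also lost without hypothyroid control replicate 18 (0.0592) or 20 (0.0694). Rxra, the partner with which the receptors pair on DNA, differed by -0.02 ± 0.124 for thyroid state and by -0.38 ± 0.124 for genotype (limma adjusted p = 0.158). Between genotypes, averaged over thyroid states, 0 of these 54 genes in 5 lists were called, by limma, in either direction, against 1.14% of all clusters, and 9 of them (16.7%) had an unadjusted p under 0.05, as did 16.7% of all clusters. For thyroid state averaged over genotypes, 6 of the 54 were called, where 6.04% of all clusters were. There 22 of them (40.7%) had an unadjusted limma p under 0.05, against 24.7% of all clusters.

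Beside Dio1, 4 of 13 genes that thyroid hormone is known to induce fell with hypothyroidism on average, and 0 rose, with a median of -0.18. They were Cyp7a1, the rate-limiting enzyme of bile acid synthesis (-2.03 ± 0.316 SE), Gpd2, the mitochondrial glycerol phosphate dehydrogenase (-1.13 ± 0.147), Idh3a, a subunit of isocitrate dehydrogenase (-0.94 ± 0.119), and Bcl3, a transcription cofactor (-0.78 ± 0.15). Gpd2 in hypothyroid mice averaged 7.02 in mutants, against 5.44 in controls, and the difference was called (1.58 ± 0.208, limma adjusted p = 0.00432), but not with the SD of the array as a covariate (0.109). With that covariate Gpd2 (0.0249) and Idh3a (0.00342) stayed called for thyroid state, and Cyp7a1 (0.089) and Bcl3 (0.343) did not.

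Between genotypes, averaged over thyroid states, 1.14% of all clusters were called in either direction, and the median difference of all clusters was -0.015. Of these 13 induced genes 4 rose in mutants and 2 fell in that average, with a median of 0.11. Those that rose were Thrsp, a lipogenic factor (2.12 ± 0.212 SE, limma adjusted p = 0.000139), Me1, the cytosolic malic enzyme (1.57 ± 0.157, 0.000139), Gpd2 (1.09 ± 0.147, 0.00198) and Idh3a (0.67 ± 0.119, 0.0113). Those that fell were the transcription factor gene Klf9 (-0.63 ± 0.144, 0.0494) and Pck1, of gluconeogenesis (-0.83 ± 0.176, 0.0338), calls lost on leaving out 1 array for 10 and 9 of 12 arrays. With the SD of the array as a covariate Thrsp and Me1 (0.0121 each) stayed called, and Gpd2 (0.065), Idh3a (0.286), Klf9 (0.436) and Pck1 (0.106) did not. Of all clusters, 0.262% were called for genotype in hypothyroid mice and 0.129% in euthyroid mice. Thrsp and Me1 were called in each thyroid state as well, at 2.16 and 1.58 in hypothyroid mice and at 2.07 and 1.55 in euthyroid mice. In hypothyroid mice both calls were lost with the SD of the array as a covariate (limma adjusted p = 0.15 each). In euthyroid mice both were lost with every cluster of the table tested. There the call of Thrsp was also lost on leaving out any 1 of the 3 euthyroid mutants or control replicate 14 (0.0523 to 0.07). That of Me1 was lost without mutant replicate 2 or 4 or control replicate 14 (0.0542 to 0.0769).

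**Figure D5:**
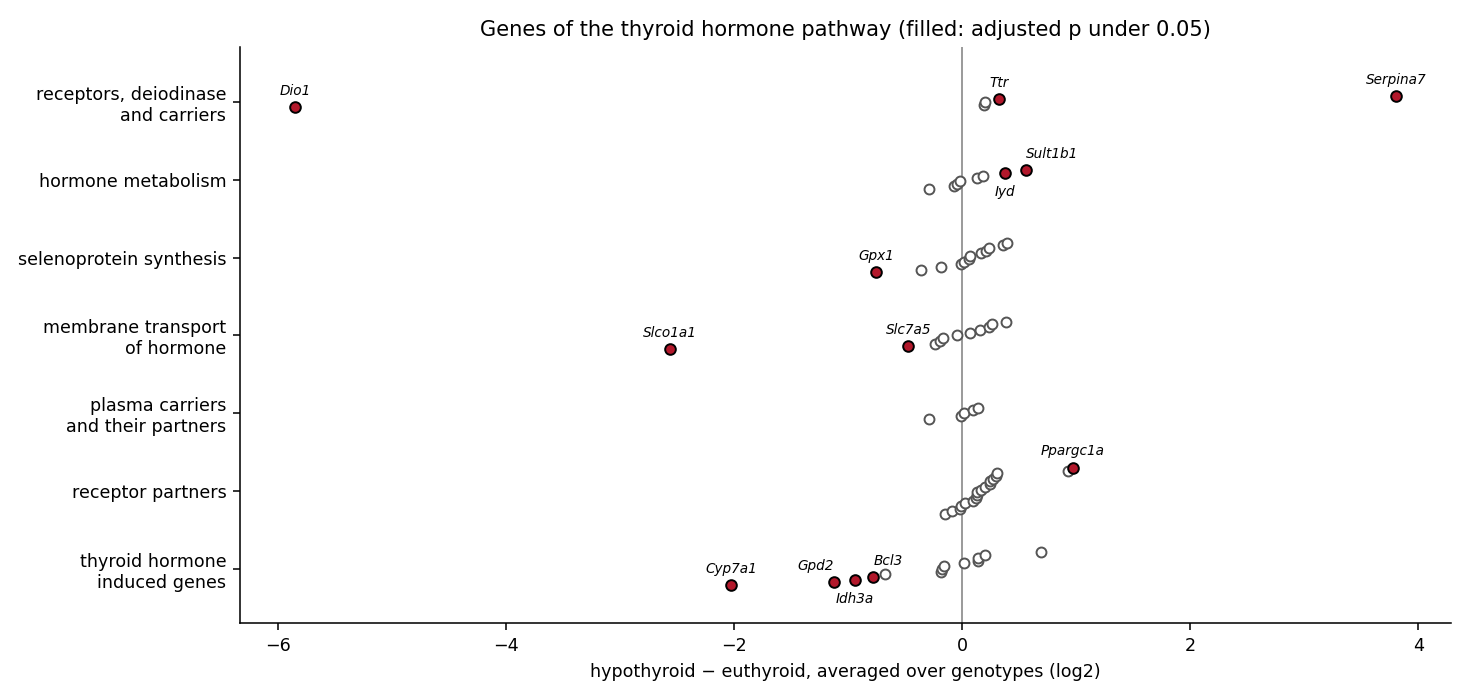
Difference of hypothyroid and euthyroid mice averaged over genotypes (log2, horizontal axis) for each measured gene of 7 groups of the thyroid hormone pathway (rows, points offset vertically for legibility), filled where the adjusted p was under 0.05. Dio1 (-5.85) and Serpina7 (3.80) stood outside the range of the other groups, whose extremes were Slco1a1 (-2.57) and Ppargc1a (0.97).

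Markers of other cells were read beside these results. Of 8 hepatocyte markers 0 were called for either factor averaged over the other. Of all clusters, 6.04% were called for thyroid state and 1.14% for genotype in those averages. An unadjusted limma p under 0.05 was met by 12.5% of these markers for each factor, against 24.7% and 16.7% of all clusters. The mean log2 level of the 8 markers was 12.05 to 12.14 in hypothyroid mutants, 12.07 to 12.11 in hypothyroid controls, 11.93 to 12.05 in euthyroid mutants and 11.997 to 12.07 in euthyroid controls. Of 12 Kupffer cell and macrophage markers 4 were called lower with hypothyroidism on average (Clec4f, Cd5l, C1qc and Lyz2) and 0 higher, where 1.87% of all clusters were called lower. The differences of the 12 ranged over -1.02 to -0.34, with a median of -0.65, against -0.020 for all clusters. Leaving out 1 array ended the call of C1qc and of Lyz2 for 7 of 12 arrays each, that of Cd5l for 4 and that of Clec4f for 0. Adgre1 was called higher in mutants averaged over thyroid states (0.66, limma adjusted p = 0.0427), a call lost for 9 of 12 arrays. In that genotype average the 12 markers differed by 0.21 to 0.86, with a median of 0.51, against -0.015 for all clusters. Their mean level was 5.37 to 6.22 in hypothyroid mutants, 5.35 to 5.53 in hypothyroid controls, 6.19 to 7.25 in euthyroid mutants and 5.86 to 5.98 in euthyroid controls. Their part in the results for the 5 genes was not tested. Of stellate, endothelial, cholangiocyte and thyroid gland markers (8, 7, 4 and 4 measured) 0 were called for either factor by limma, nor was the 1 erythroid marker measured, Alas2, and 8 of these 24 (33.3%) had an unadjusted p under 0.05 for thyroid state averaged over genotypes, as did 24.7% of all clusters. For genotype averaged over thyroid states 0 of the 24 did, against 16.7% of all clusters.

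The clusters most like each gene over the 12 arrays were taken by Pearson's r, as a description, since the arrays share groups, scanning and normalization. Dio1 was most like 9030619P08Rik (r = 0.984), which averaged 3.87 in hypothyroid mutants, 3.29 in hypothyroid controls, 9.51 in euthyroid mutants and 7.93 in euthyroid controls. Sult5a1 (0.971) and Sh3pxd2a (0.969) followed, and Nqo1 was most opposite (-0.981). Within groups, as deviations from the group means, the r of Dio1 was 0.059 with 9030619P08Rik and 0.0495 with Sh3pxd2a, so these likenesses lay in the group means. It was 0.554 with Sult5a1 and -0.729 with Nqo1, over 12 arrays and for genes picked by their r, and whether these differ from 0 was not tested.

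Serpina7 was most like Lap3 (r = 0.986), Acsm3 (0.972) and Plekha5 (0.967), and most opposite to Stat5a (-0.967). With these its likeness also held within groups, at 0.951 with Lap3 and 0.937 with Acsm3: the arrays with more Serpina7 than their group had more of both. Lap3, a leucine aminopeptidase, averaged 9.90 in hypothyroid mutants, 10.03 in hypothyroid controls, 9.39 in euthyroid mutants and 9.48 in euthyroid controls.

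Thrb was most like Dcaf6 (r = 0.975), Zfhx4 (0.966) and Birc6 (0.953), and most opposite to Muc4 (-0.96), with nearly the same r within groups (0.975, 0.965, 0.956 and -0.977). Thra had looser likenesses, to Eppk1 (0.929), Mn1 (0.92) and Inpp5k (0.908), with 3 clusters above 0.9, against 46 for Thrb, 52 for Dio1 and 80 for Serpina7. Ttr was most like Got2, the mitochondrial aspartate aminotransferase, in both of its clusters (0.971 and 0.96) and like Tdo2, tryptophan dioxygenase (0.963), and most opposite to Akt1 (-0.983).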

How the data were processed

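Liver RNA (Trizol, RNeasy columns, 200 ng) was hybridised to 12 arrays, per the labels' protocols. The deposited log2 signals were made by the authors with RMA, per the submitters' processing notes, and neither its options nor a genome build is given in the sources used here. The table holds no intensities, detection calls or scan dates, so depth over background and array batches were not analysed, and precision is limited by how many arrays there are. The means of the 4 groups were estimated together from the 12 arrays by limma 3.58.1 in R 4.3.3 (moderated variances), with Benjamini-Hochberg adjustment over the 21789 clusters with 1 symbol in each of 7 comparisons. Clusters were called at an adjusted p under 0.05, and no filter on level was used. The script was tested on simulated data with 200 clusters changed in 1 comparison. Of changes of 1.5-fold, 5.5% were called for genotype in euthyroid mice and 8.5% for hypothyroidism in controls. Of changes of 2-fold, 83.5% and 80.5% were. A difference of about 1.5-fold or less that was not called is therefore not shown to be absent. For single genes, genotype or thyroid state was permuted exactly within the other factor. Fold changes are ratios of deposited signals. Promoter sequences and gene positions are from RefSeq tables (GRCm38.p6). Genes outside the 5 were named where called in a list or by the ranks of likeness, and others as examples chosen after their values were seen. The members and lists were chosen with earlier results of these data known. Some list genes, and Ncor1 itself, were not analysed here.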

Additional observations from a re-analysis of the deposited data

How the results depend on the processing

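The falls of Dio1 and the rises of Serpina7 with hypothyroidism kept their sign under every alternative run, and Dio1 kept its call. Of 685 alternative values of the 5 genes, 629 kept direction and call, 12 lost a call, 9 gained one and 35 turned sign, and of 659 values of list genes 498 kept their call and 161 lost it. Most values of the 5 genes belong to differences not called in the main fit, which had no call to lose. The list values are only of differences called in the main fit, which could not gain one. These counts therefore do not measure how firm the calls are. Of 150 exact permutation results, 133 were kept, 5 lost, 8 gained and 4 turned. The cause of these changes was not tested. No paired analysis was possible because the groups share no replicate numbers. No gene had a second cluster, so that alternative was not run.

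Serpina7 with hypothyroidism in mutants was 3.89 with trend and robust variances (limma adjusted p = 0.0761) and 1.94 with the array SD (0.299), and in controls it stayed at 3.72 with every cluster tested (0.0536) and with trend and robust variances (0.0737). Its genotype average was -2.18 with the array SD and -1.70 without both outlying arrays (control euthyroid replicate 14 and mutant hypothyroid replicate 7), and its interaction was -0.51 with the array SD (-0.59 to 0.86 leaving out 1 array). Dio1 in euthyroid mutants against controls was 1.22 with the array SD and 1.22 without both arrays (0.84 to 1.22 leaving out 1), its genotype average was 0.73 without both, and in hypothyroid mice it ranged over -0.22 to 0.23. Ttr with hypothyroidism in mutants was 0.41 with trend and robust variances (limma adjusted p = 0.0159, range 0.38 to 0.43), its average was 0.33 with the array SD (0.30 to 0.34), and in hypothyroid mutants against controls it was 0.039 after median centring. The interaction of Thra was -0.14 without both arrays (-0.082 to 0.16).

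Thrb turned sign most. With the array SD it was -0.31 (hypothyroid) and -0.11 (euthyroid) for genotype, -0.31 (mutants) and -0.10 (controls) for hypothyroidism, and -0.21 and -0.20 for the averages of genotype and thyroid state. Without both outlying arrays these were -0.12, -0.13, -0.0059, -0.015, -0.12 and -0.010, and the interaction was 0.0088. Quantile normalization gave -0.0071 for genotype in hypothyroid mice. Leaving out 1 array, genotype ranged over -0.12 to 0.23 in hypothyroid mice, -0.13 to 0.32 in euthyroid mice and -0.026 to 0.20 on average, hypothyroidism over -0.0059 to 0.34 in mutants and -0.015 to 0.43 in controls, and the interaction over -0.25 to 0.20. Exact permutation p-values of Thrb without both arrays were 0.22 for genotype and 0.92 for thyroid state, and 0.255 to 0.985 for genotype leaving out 1 array.

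Counts of called clusters moved too. Genotype in hypothyroid mice gave 57, but 33 with every cluster tested, 174 with the compared groups alone, 9 with the array SD and 21 to 133 leaving out 1 array. Genotype in euthyroid mice gave 28 (27 higher, 1 lower), but 45 (38 and 7) after quantile normalization, 10 with every cluster, 14 without both arrays and 6 to 192. Hypothyroidism in mutants gave 241 (142 and 99), but 146 with every cluster, 36 with the array SD, 89 to 620, and 111 higher and 121 lower after quantile normalization. In controls it gave 242 (139 and 103), but 144 with every cluster, 135 with the compared groups alone, 137 with the array SD, 134 to 864, and 141 and 160 after quantile normalization. The genotype average gave 248 (197 and 51), but 95, 41 and 140 with every cluster, the array SD and without both arrays, 107 to 1866, and 178 and 81 after quantile normalization. The thyroid average gave 1317 (910 and 407), but 872, 181 and 730, 680 to 3579, and 548 and 484. The interaction gave 0 to 1.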
